A study of Mus musculus with 16 samples.

Results

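Mt1, Mt2, Fkbp5, Tsc22d3, Zbtb16, Ddit4, Klf9 and Sgk1 are genes whose transcripts are known to rise with glucocorticoids or with metal and other cellular stress, and they were followed here as a sign of injection or handling stress in sorted mouse immune cells. The members were the genes of those 8 symbols, of 19752 genes measured on the arrays, and each was measured by 1 probe set. The symbols were picked without a cut on measured values, but with earlier results of these data known. The study used Affymetrix Mouse Gene 1.0 ST chips for 8 groups of male mice given interferon-α (IFNα) or not, with 2 arrays each and 16 in all, on cells sorted by flow cytometry into TriZol. The first 5 groups were peritoneal macrophages sorted as positive for ICAM2 and for the macrophage surface protein encoded by Adgre1. Of these, the IFNAR1-knockout groups (B6.129S2-Ifnar1tm1Agt, called KO below, 6 weeks old) were titled either IFNα at 2 h or with no IFNα. The B10.Q/J macrophage groups (7 weeks old) were vehicle, IFNα at 2 h and IFNα at 5 h. The other 3 groups were splenic CD4+ T cells (TCRβ+ CD4+ CD8-) of B10.Q/J mice of the same age, again vehicle, IFNα at 2 h and IFNα at 5 h. IFNα was 10000 U injected under the skin, and the times run from injection to sacrifice.

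Several points limit what the groups can show. The knockout removes the IFNα receptor subunit from all cells, and B10.Q/J is a strain known to carry a loss-of-function Tyk2 allele, so neither strain is a plain wild type, and strain, genotype and age differ together between KO and B10.Q mice. The vehicle pair of each cell type is 1 array taken at 2 h (array 1) and 1 taken at 5 h (array 2). The KO arrays titled without IFNα carry a preparation label that states the same injection as the IFNα arrays. The titles were followed, and if that label is right both KO groups were injected. The titles of these arrays name no vehicle, so if the titles are right, IFNα and injection cannot be told apart in the KO comparison. The comparisons of KO without IFNα with B10.Q vehicle, and of the KO with the B10.Q response, share this limit. Separate animals behind the 2 arrays of a group are not stated in the labels, and the p-values then cover only array-to-array spread, which may be technical. In sorted cells measured in bulk, fewer cells with high RNA and less RNA per cell cannot be told apart.

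Glucocorticoids released in stress bind the glucocorticoid receptor (Nr3c1), which enters the nucleus and activates genes through paired short motifs called glucocorticoid response elements. Fkbp5 is a co-chaperone of the receptor that lowers its hormone affinity and so acts in a short negative feedback. Tsc22d3 (GILZ), Zbtb16 (PLZF), Klf9, Sgk1 and Ddit4 (REDD1) are other receptor targets in many cell types. Metallothioneins 1 and 2 are small cysteine-rich proteins that bind zinc, copper and cadmium. They are induced by metals through the factor MTF1, which binds metal response elements, and also by glucocorticoids and inflammatory cytokines.

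The promoter windows of both metallothionein genes are shown because these genes varied together in the macrophages, and 1 of the 6 Sgk1 windows because it held the other full match to the receptor motif. In RefSeq on GRCm38.p6, Mt2 lies at chr8:94172618-94173567 and Mt1 at chr8:94178883-94180327, both on the plus strand, with 5315 bp and 0 RefSeq genes between them. Each window runs from 250 bases before to 50 bases after an annotated transcript start. Capitals mark metal response element cores (TGCACNC or TGCGCNC) and the full glucocorticoid response element (GNACA and TGTNC with 3 bases between them), each searched on both strands. No marked motif overlapped another.
Mt2, chr8:94172368-94172667, plus strand: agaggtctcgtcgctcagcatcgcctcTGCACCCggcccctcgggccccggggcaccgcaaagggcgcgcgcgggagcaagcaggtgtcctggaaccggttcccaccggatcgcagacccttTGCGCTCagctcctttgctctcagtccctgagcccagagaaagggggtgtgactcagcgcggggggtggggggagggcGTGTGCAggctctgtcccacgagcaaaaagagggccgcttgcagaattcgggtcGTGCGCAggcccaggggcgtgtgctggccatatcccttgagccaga
Mt1, chr8:94178839-94179138, plus strand: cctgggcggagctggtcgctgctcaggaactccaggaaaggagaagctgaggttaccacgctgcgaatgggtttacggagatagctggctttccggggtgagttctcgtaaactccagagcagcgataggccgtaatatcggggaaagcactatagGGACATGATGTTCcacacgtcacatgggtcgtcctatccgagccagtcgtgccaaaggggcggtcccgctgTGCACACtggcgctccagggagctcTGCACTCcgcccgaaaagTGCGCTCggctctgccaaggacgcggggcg
Sgk1, chr10:21993640-21993939, plus strand: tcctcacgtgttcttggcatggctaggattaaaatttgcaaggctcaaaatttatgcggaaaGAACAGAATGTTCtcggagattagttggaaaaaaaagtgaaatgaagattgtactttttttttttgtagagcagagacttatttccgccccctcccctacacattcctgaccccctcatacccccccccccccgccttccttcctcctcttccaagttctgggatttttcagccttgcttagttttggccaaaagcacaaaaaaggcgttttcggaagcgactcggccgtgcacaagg

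The Mt2 window held 4 metal response element cores, and 0.517% of the 32851 RefSeq promoter windows of that length held at least 4. The Mt1 window held 3 cores, and 1.97% of windows held at least 3. A full glucocorticoid response element was found in the Mt1 window (GGACATGATGTTC) and in this Sgk1 window (GAACAGAATGTTC), against 0.475% of all windows. The windows of Fkbp5, Klf9 and Tsc22d3 held neither motif, which says only that these letters are not in those windows. A match is a stretch of letters and not a measured binding site. Windows were available for 7 of the 8 genes, all but Zbtb16.

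Arrays had medians between 173.57 and 193.7 in the deposited intensity. The macrophage arrays carried their defining markers (5 of 6 with a probe set), with a mean log2 level of 11.51 to 12.17, against 7.17 to 8.20 on the T-cell arrays. T-cell markers averaged 11.86 to 12.13 on the T-cell arrays and at most 6.64 on the macrophage arrays. Some arrays stood apart. KO IFNα array 1 had the lowest ratio of upper to lower quartile (5.49, against 6.06 to 7.52 on the other macrophage arrays), the lowest macrophage marker mean (11.51, against 11.91 to 12.17) and a B-cell marker mean of 8.02. KO array 1 without IFNα had a B-cell marker mean of 7.83, while the other 8 macrophage arrays lay between 6.82 and 6.98. B10.Q macrophage IFNα 2 h array 1 had a quartile ratio of 6.06, against 7.14 to 7.52 on the other B10.Q macrophage arrays. T-cell IFNα 2 h array 1 had a macrophage marker mean of 8.20, against 7.17 to 7.48 on the other T-cell arrays. In the titles, a spleen code appears on 5 of the 6 B10.Q macrophage arrays, all but IFNα 2 h array 1. A B-cell code opens the title of 1 T-cell vehicle array. The vehicle group's B-cell marker mean was 6.99 on both arrays.

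All 8 genes passed the filter on dim probe sets in macrophages, where 10531 genes were tested. In T cells 6 of 8 passed among 10112 genes, and Mt1 and Mt2 were not tested there. All values below are log2 of the deposited intensity, differences are log2 differences ± SE from limma, a gene was called at a Benjamini-Hochberg adjusted p under 0.05 over all genes of the contrast, and n was 2 arrays per group throughout. Levels are compared between groups of 1 gene, never between genes.

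**Figure D1:**
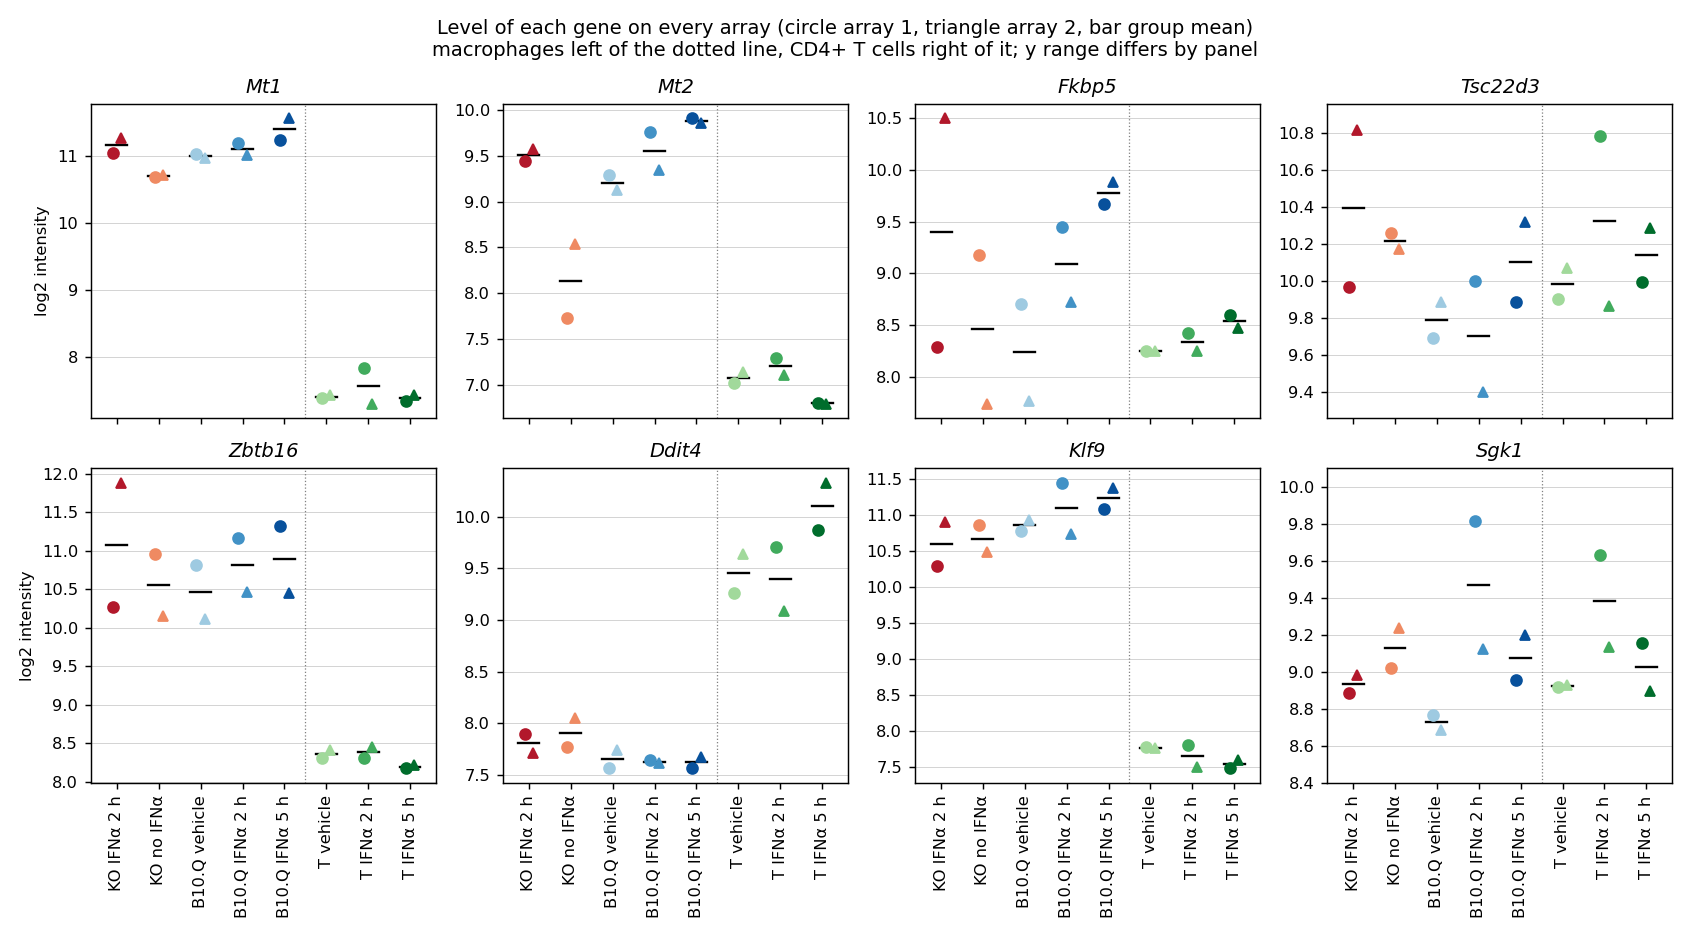
Log2 intensity of the 8 genes on each of the 16 arrays (circle array 1, triangle array 2, bar group mean), with macrophage groups left of the dotted line and T-cell groups right of it. Mt1, Mt2, Zbtb16 and Klf9 were higher in macrophages and Ddit4 was higher in T cells, while the Fkbp5 arrays of single macrophage groups lay as far apart as 8.29 and 10.51.

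The metallothioneins were lowest among macrophages in the KO arrays titled without IFNα. Mt2 stood at 9.44 and 9.57 in KO IFNα macrophages, against 7.73 and 8.54 in KO macrophages without IFNα. The groups did not overlap, and the 2 arrays without IFNα were also below every other macrophage array, which spanned 9.12 to 9.91 with a median of 9.51. Mt1 stood at 11.04 and 11.27 in KO IFNα macrophages, against 10.69 and 10.71 without IFNα. Here too both arrays without IFNα were below the other 8, at 10.97 to 11.57. For both genes the group means were lowest in KO without IFNα, next in B10.Q vehicle and highest in B10.Q IFNα 5 h. KO IFNα and B10.Q IFNα 2 h lay between these and overlapped each other.

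In the KO comparison of IFNα with no IFNα, Mt2 was higher by 1.38 ± 0.23 (95% interval 0.86 to 1.89). No fold is given, since Mt2 at 7.73 was near the median of 7.55 on KO array 1 without IFNα. Mt2 ranked 9 of 10531 genes by p, with an adjusted p of 0.174 in limma, and so did not pass the test. Mt1 was higher by 0.46 ± 0.14 (adjusted p = 0.911). limma called 0 of the 8 genes, and 0% of all genes tested were called. At an unadjusted p under 0.05 there were 2 of the 8, Mt1 and Mt2, and 460 of all genes. The Mt2 call depended on the arrays included. Mt2 was called without KO IFNα array 1 (1.44, adjusted p = 0.0457) and without KO IFNα array 2 (1.31, adjusted p = 0.0109, with 1185 genes called in all). It was not called without KO array 1 titled without IFNα (0.97, adjusted p = 0.454) or without array 2 of that group (1.78, adjusted p = 0.101). The arrays with raised B-cell markers were 1 of each KO group, and Mt2 was 9.44 and 7.73 on them, against 9.57 and 8.54 on the other array of the IFNα group and of the group without IFNα. The part of B-cell RNA in the difference was not tested.

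Set against B10.Q, KO macrophages had less Mt2 in the groups without IFNα and a similar level in the groups with it, and neither difference was called. KO macrophages titled without IFNα were below B10.Q vehicle by 1.07 for Mt2 (log2 difference -1.07 ± 0.23, adjusted p = 0.102), with 7.73 and 8.54 in KO cells against 9.29 and 9.12 in B10.Q cells. Without KO array 2 of that group the difference was -1.48 and was called (adjusted p = 0.0253), and without KO array 1 it was -0.67 (adjusted p = 0.248). limma called 0 of the 8 genes in this comparison, and 0.541% of all genes were called. At an unadjusted p under 0.05 there were 1 of the 8 and 1215 of all 10531 genes. At 2 h after IFNα, Mt2 stood at 9.44 and 9.57 in KO cells against 9.76 and 9.34 in B10.Q cells, a log2 difference of -0.04 ± 0.23 with a 95% interval of -0.56 to 0.48. The difference between the KO and the B10.Q response was 1.03 ± 0.33 for Mt2 (adjusted p = 0.517 in limma). In that test of the difference 0.408% of all genes were called, with 0 of the 8. The B10.Q response is measured from vehicle, and the KO response from arrays whose titles name no vehicle.

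In B10.Q macrophages Mt2, and at 5 h Mt1, had higher estimates after IFNα than with vehicle without passing the test. Mt2 was 9.29 and 9.12 with vehicle, 9.76 and 9.34 at 2 h and 9.91 and 9.85 at 5 h. All 4 IFNα arrays were above both vehicle arrays for Mt2. Mt1 was 11.03 and 10.97 with vehicle, 11.19 and 11.02 at 2 h and 11.24 and 11.57 at 5 h, so that its 2 h arrays overlapped with vehicle (0.10 ± 0.14). At 5 h the difference was 0.68 ± 0.23 for Mt2 (1.60-fold, adjusted p = 0.711) and 0.40 ± 0.14 for Mt1 (1.32-fold, adjusted p = 0.740). In a fit that gave treatment and time a term each, the IFNα term was 0.51 ± 0.14 for Mt2 (adjusted p = 0.188) and 0.25 ± 0.12 for Mt1 (adjusted p = 0.868). In T cells both genes were near or below the array medians, with Mt1 between 7.30 and 7.83 and Mt2 between 6.79 and 7.30. The highest Mt1 and Mt2 of the T-cell arrays were both on the IFNα 2 h array with raised macrophage markers.

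**Figure D2:**
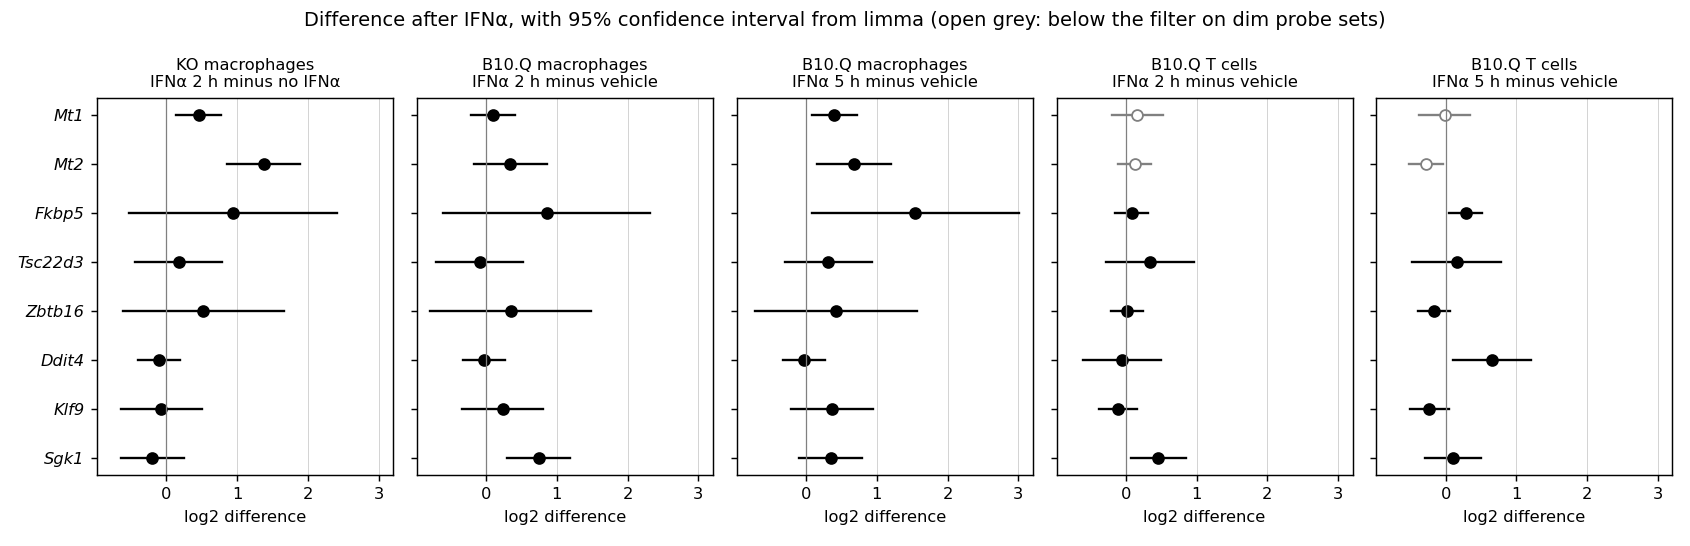
Log2 difference after IFNα for each gene in 5 comparisons, with its 95% confidence interval from limma, open grey where the gene was below the filter. The interval of Mt2 in KO macrophages ran from 0.86 to 1.89, and that of Fkbp5 from -0.53 to 2.41.

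Fkbp5 was the gene of the 8 with the widest scatter between arrays of 1 macrophage group. It stood at 8.29 and 10.51 in KO IFNα macrophages, against 9.18 and 7.74 in KO macrophages without IFNα. The groups overlapped, and the mean difference of 0.94 ± 0.66 had an interval from -0.53 to 2.41. Without KO IFNα array 1 the estimate was 2.05 ± 0.49 (adjusted p = 0.142), and without KO IFNα array 2 it was -0.17 ± 0.49. In B10.Q macrophages Fkbp5 was 8.71 and 7.76 with vehicle, 9.45 and 8.73 at 2 h and 9.67 and 9.89 at 5 h. All 4 IFNα arrays were above both vehicle arrays, although 8.73 and 8.71 were close. At 5 h the difference was 1.55 ± 0.66 (adjusted p = 0.9998 in limma), and at 2 h it was 0.85 ± 0.66 (adjusted p = 0.984). No fold is given, since Fkbp5 at 7.76 was near the median of 7.51 on vehicle array 2.

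Of the 8 genes, Fkbp5 had the largest IFNα term in B10.Q macrophages once time had a term of its own, at 1.20 ± 0.30 (adjusted p = 0.116). This compares 4 IFNα arrays with 2 vehicle arrays, 1 at each time. The vehicle array taken at 5 h was below that taken at 2 h by 0.94 for Fkbp5 and by 0.70 for Zbtb16, while the change between the same times in T-cell vehicle arrays was 0.00 and 0.10. These are single arrays with no replicate check. In T cells Fkbp5 was 8.25 and 8.25 with vehicle, 8.42 and 8.25 at 2 h and 8.60 and 8.47 at 5 h. The 5 h difference in T cells was 0.29 ± 0.10 (adjusted p = 1.00), with both 5 h arrays above both vehicle arrays.

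Zbtb16, a zinc-finger transcription factor, scattered in the macrophages much as Fkbp5 did. It stood at 10.27 and 11.89 in KO IFNα macrophages, against 10.96 and 10.15 in KO macrophages without IFNα. In B10.Q macrophages it was 10.82 and 10.12 with vehicle, 11.16 and 10.47 at 2 h and 11.32 and 10.46 at 5 h. Every one of these groups overlapped with every other. The differences after IFNα were 0.52 ± 0.51 in KO cells and 0.42 ± 0.51 at 5 h in B10.Q cells, both with intervals across 0. In T cells Zbtb16 lay between 8.18 and 8.45.

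The SD between the arrays of a group, pooled over the 5 macrophage groups, was 0.919 for Fkbp5, which ranked 2 of 10531 genes from the highest, and 0.707 for Zbtb16, which ranked 7. The median gene had 0.141, and 0.462 was the 99th percentile. Tsc22d3 (0.363, rank 307) and Klf9 (0.338, rank 411) were above the 95th percentile of 0.315, and Mt2 (0.297, rank 680) was just below it. Sgk1 (0.245) lay above the median, while Mt1 (0.140) and Ddit4 (0.124) did not. The genes with the highest spread beside these were Iigp1 (1.10), Ifit3 (0.809), Ifi213 (0.781), Gm4951 (0.764) and Eif5a (0.755). In T cells the spread of Fkbp5 (0.088, rank 6117 of 10112) and Zbtb16 (0.073, rank 7216) was below the median of 0.102. There Tsc22d3 (0.399, rank 120) and Ddit4 (0.349, rank 199) were the most variable of the 6 tested. The spread is a description of these arrays and carries no test.

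**Figure D3:**
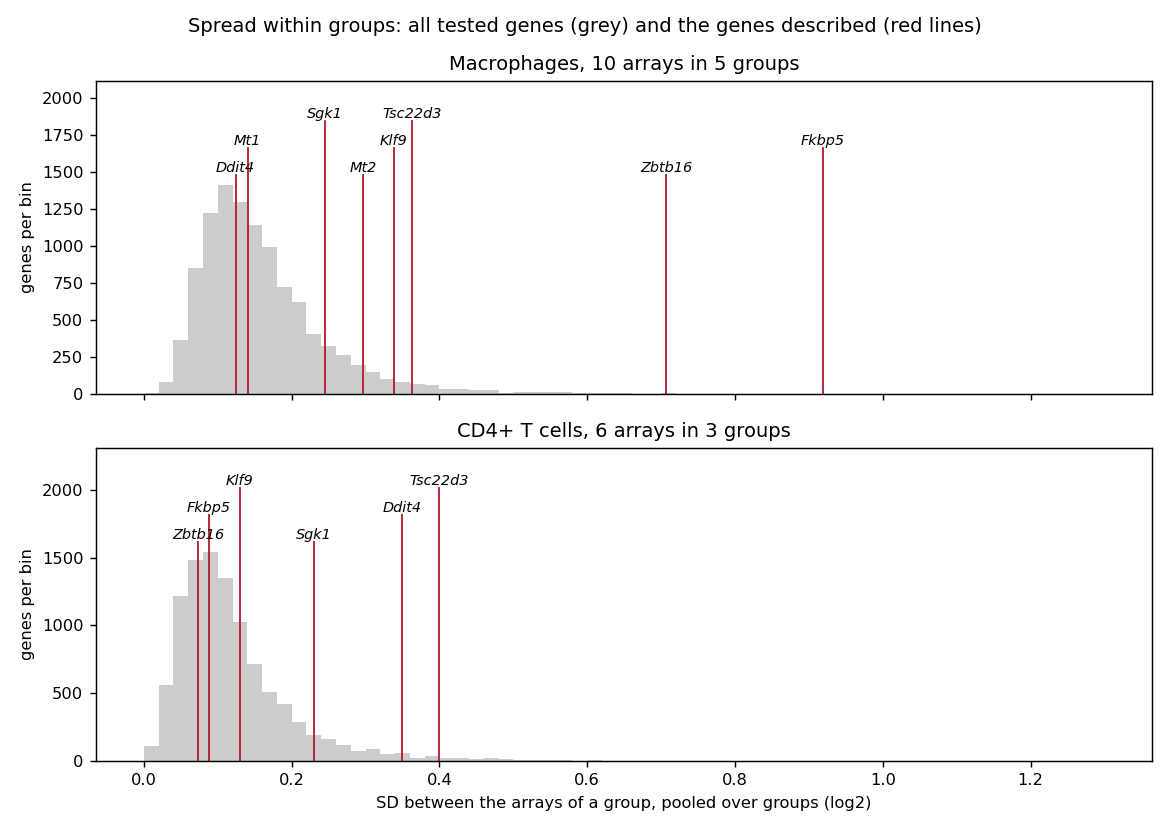
Histograms of the within-group SD of log2 intensity over all tested genes, in macrophages (top) and T cells (bottom), with the genes described here as red lines. Fkbp5 and Zbtb16 lay far right in macrophages, at 0.919 and 0.707, and left of the median in T cells.

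Fkbp5 and Zbtb16 scattered together. In 4 of the 5 macrophage groups the array that was higher for Fkbp5 was also the higher for Zbtb16, and the exception was B10.Q IFNα at 5 h. Klf9, Tsc22d3, Mt1 and Sgk1 also went with Fkbp5 in 4 of 5 groups, Mt2 in 3 and Ddit4 in 2. The same count was not made over all genes, so whether Zbtb16 or these genes went with Fkbp5 more often than others was not tested. In KO IFNα macrophages array 2 was above array 1 by 2.21 for Fkbp5, 1.62 for Zbtb16, 0.85 for Tsc22d3 and 0.61 for Klf9. In KO macrophages without IFNα array 1 was above array 2 by 1.44 for Fkbp5 and 0.81 for Zbtb16. KO IFNα array 1, the low array of its pair, was that with the lowest macrophage marker mean and quartile ratio. KO array 1 without IFNα, the high array of its pair, shared its raised B-cell markers but not the low macrophage marker mean (11.99). The part of these differences in the scatter was not tested.

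Across the 10 macrophage arrays, Pearson's r was 0.843 between Fkbp5 and Zbtb16 (Spearman's rho 0.794) and 0.867 between Mt1 and Mt2 (rho 0.927). These are descriptions over arrays that share groups and, for each pair of values, the array itself. By r, Zbtb16 was 8th of 10530 genes for Fkbp5, Fkbp5 was 5th for Zbtb16, and Mt2 was 5th for Mt1. The link between the pairs was looser, at 0.678 for Fkbp5 with Mt1 and 0.418 for Fkbp5 with Mt2. Ddit4 had negative r with Mt1, Mt2, Fkbp5 (-0.534), Zbtb16 and Klf9 (-0.616), and positive r with Tsc22d3 (0.322) and Sgk1 (0.015). For Ddit4, Fkbp5 ranked 8108 and Klf9 8775 of 10530 genes from the highest r, so many other genes had lower values. In the 6 T-cell arrays r between Fkbp5 and Zbtb16 was -0.882, over a range of 8.25 to 8.60 for Fkbp5.

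**Figure D4:**
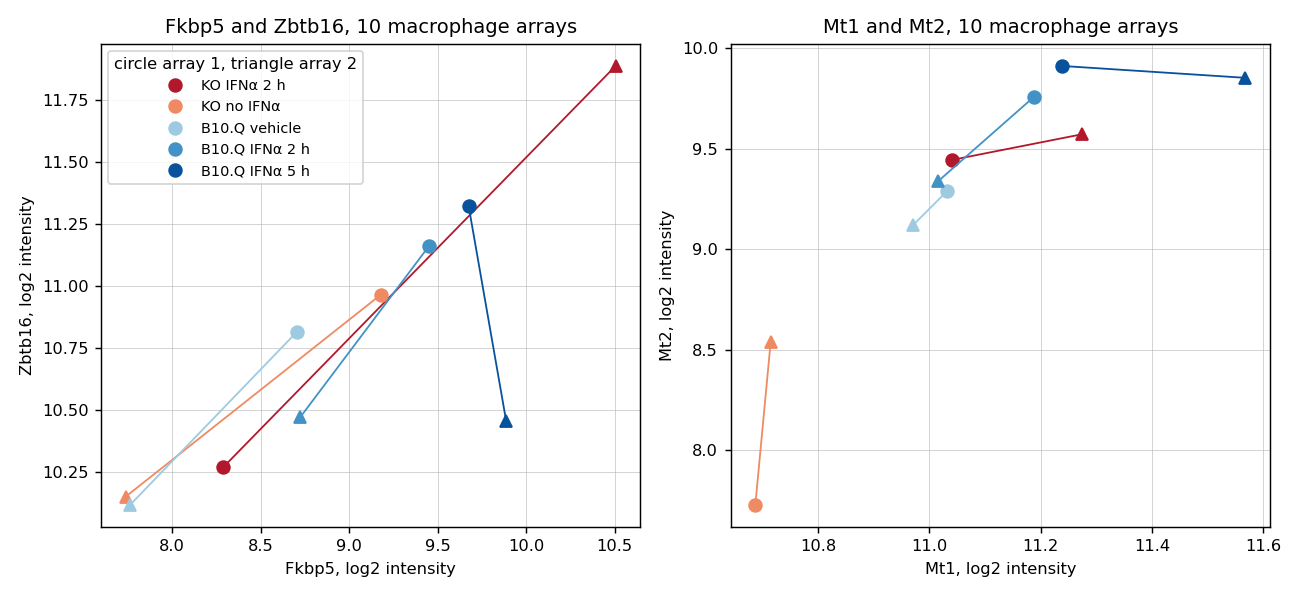
Log2 intensity of Zbtb16 against Fkbp5 (left) and of Mt2 against Mt1 (right) on the 10 macrophage arrays, with lines joining the arrays of a group (circle array 1, triangle array 2). The Fkbp5 and Zbtb16 lines rose together in all groups but B10.Q IFNα 5 h, and the KO arrays without IFNα sat at the lower left for the metallothioneins.

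The 5 genes most like each member by r over the 10 macrophage arrays were as follows. For Mt1 they were Tuba4a, Lrg1, Sult1a1, Tmem248 and Mt2, with r from 0.867 to 0.916. For Mt2 they were Cab39l, Zbtb39, Scarb2, Fcer1g and Nkiras1 (0.878 to 0.921). For Fkbp5 they were Gemin4, Nipal1, Fut10, Plpp1 and Tmem131l (0.869 to 0.887). These values lie at the top of a broad distribution, whose 99th percentile was 0.729 for Mt1 and 0.648 for Fkbp5. For Zbtb16 they were Lifr, Usp40, Zfp457, Dpcd and Fkbp5 (0.843 to 0.894). For Sgk1 they were Socs1, H2aw, A530064D06Rik, Iigp1 and Gbp5 (0.919 to 0.943). The remaining lists began with Dhodh and Wfs1 for Tsc22d3, Sgcb and Mcrip2 for Ddit4, and Snx10 and Tasor2 for Klf9. Over only 6 T-cell arrays the leading genes reached r of 0.986 to 0.993 and were led by Lrp5 for Fkbp5, Hmgb2 for Tsc22d3, Rala for Zbtb16, Zkscan6 for Ddit4, Pdlim5 for Klf9 and Stag2 for Sgk1.

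Sgk1, a kinase that controls ion transport and cell survival, was the gene nearest to a call at 2 h in B10.Q macrophages. It was 8.77 and 8.68 with vehicle, 9.81 and 9.12 at 2 h and 8.95 and 9.20 at 5 h. Both 2 h arrays were above both vehicle arrays, with array 1 well above the other. Array 1 was also the B10.Q macrophage array with the low quartile ratio, and the part of this in its Sgk1 value was not tested. The 2 h difference was 0.74 ± 0.20 (1.67-fold, adjusted p = 0.280), and without array 2 of the 2 h group it was 1.09. Without array 1 of the 2 h group it was 0.40. In KO macrophages Sgk1 was 8.88 and 8.98 with IFNα, against 9.02 and 9.23 without, a log2 difference of -0.19 ± 0.20. The KO response minus the B10.Q response was -0.94 ± 0.28 (adjusted p = 0.459). It was -1.28 without array 2 of the B10.Q 2 h group and -0.59 without array 1 of that group.

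At 2 h, limma called 0 of the 8 genes in B10.Q macrophages, 1 had an unadjusted p under 0.05 (Sgk1), and 0.798% of all genes were called. At 5 h it called 0 of 8, 3 had an unadjusted p under 0.05 (Mt1, Mt2 and Fkbp5, all higher), and 0.836% of all genes were called. Between 5 h and 2 h it called 0 of 8, 0 had an unadjusted p under 0.05, and 0.0095% of all genes were called. Over all 10531 genes, 476, 414 and 529 had an unadjusted p under 0.05, in the same order. The median difference of the 8 genes was 0.29 at 2 h and 0.39 at 5 h, beside -0.06 and -0.01 over all genes tested. In KO cells it was 0.32 beside -0.01.

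Tsc22d3, a leucine-zipper protein that mediates anti-inflammatory effects of glucocorticoids, stood at 9.97 and 10.82 in KO IFNα macrophages, against 10.26 and 10.17 without IFNα. In B10.Q macrophages it was 9.69 and 9.89 with vehicle, 10.001 and 9.401 at 2 h and 9.89 and 10.32 at 5 h, and the groups overlapped. At 2 h after IFNα it was higher in KO than in B10.Q macrophages by 0.69 ± 0.28 (adjusted p = 0.241) and, without KO IFNα array 1, by 1.12. Without KO IFNα array 2 it was higher by 0.27. Klf9, a Krüppel-like transcription factor, was 10.29 and 10.91 in KO IFNα cells, against 10.85 and 10.48 in KO cells without IFNα. In B10.Q macrophages it was 10.78 and 10.93 with vehicle, 11.45 and 10.73 at 2 h and 11.08 and 11.38 at 5 h. The 11.45 was on the B10.Q array with the low quartile ratio. Both 5 h arrays were above both vehicle arrays (0.37 ± 0.26, adjusted p = 1.00).

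In the comparison of KO with B10.Q macrophages at 2 h after IFNα, limma called 0 of the 8 genes, and 1.98% of all genes were called. At an unadjusted p under 0.05 there were 2 of the 8 (Tsc22d3 higher and Sgk1 lower in KO cells) and 1794 of all 10531 genes. Sgk1 differed by -0.53 ± 0.20 (adjusted p = 0.212), and by -0.88 without array 2 of the B10.Q 2 h group but by -0.19 without array 1. Klf9 differed by -0.49 ± 0.26, by -0.79 without KO IFNα array 2 and by -0.13 without array 1 of the B10.Q 2 h group. Each of the larger differences came from leaving out 1 array that lay toward the other group.

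Ddit4, an inhibitor of mTORC1 signalling that responds to hypoxia, DNA damage and glucocorticoids, varied little in macrophages. The medians of the macrophage arrays were 7.49 to 7.60, so Ddit4 was dim there. It stood at 7.90 and 7.71 in KO IFNα cells, against 7.77 and 8.05 in KO cells without IFNα, and between 7.56 and 7.74 on the 6 B10.Q macrophage arrays. In T cells it was 9.27 and 9.64 with vehicle, 9.71 and 9.09 at 2 h and 9.88 and 10.33 at 5 h. Both 5 h arrays were above all other T-cell arrays. The difference from vehicle at 5 h was 0.65 ± 0.24 (1.57-fold, adjusted p = 1.00). The later T-cell arrays were also higher with vehicle, where the array at 5 h was above that at 2 h by 0.38, and in the fit with both terms the time term was 0.59 ± 0.19 (adjusted p = 0.864) and the IFNα term 0.30 ± 0.20.

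In T cells Tsc22d3 and Sgk1 were highest on 1 array. Tsc22d3 was 9.90 and 10.07 with vehicle, 10.78 and 9.86 at 2 h and 9.99 and 10.29 at 5 h. Sgk1 was 8.92 and 8.93 with vehicle, 9.63 and 9.13 at 2 h and 9.15 and 8.90 at 5 h. The high array of the 2 h group was the one with raised macrophage markers, where Adgre1 was 8.63, against 5.88 to 6.82 on the other T-cell arrays. Sgk1 and Tsc22d3 were at 8.68 to 9.81 and 9.40 to 10.82 on macrophage arrays, and the part of macrophage RNA in their T-cell values was not tested. With both 2 h arrays Sgk1 differed from vehicle by 0.46 ± 0.17 (adjusted p = 0.763) and Tsc22d3 by 0.34 ± 0.27. Without array 2 of the 2 h group, which leaves the array with macrophage markers, the difference was 0.71 for Sgk1 and 0.80 for Tsc22d3. Without array 1 it was 0.21 for Sgk1 and -0.12 for Tsc22d3.

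In T cells limma called 0 of the 6 genes tested at 2 h, 1 had an unadjusted p under 0.05 (Sgk1), and 0.287% of all genes were called. At 5 h it called 0 of 6, 2 had an unadjusted p under 0.05 (Fkbp5 and Ddit4), and 0.0198% of all genes were called. Between 5 h and 2 h it called 0 of 6, 1 had an unadjusted p under 0.05 (Ddit4), and 0.00989% of all genes were called. Over all 10112 genes, 614, 387 and 996 had an unadjusted p under 0.05, in the same order. Without array 2 of the 2 h group the last comparison gave -0.64 for Tsc22d3 and -0.61 for Sgk1. Without array 1 these were 0.28 and -0.11. Klf9 in T cells lay between 7.48 and 7.81.

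Between B10.Q macrophages and T cells, 5 of the 8 genes were called and 3 did not pass the test. With vehicle, Mt1 was 11.03 and 10.97 in B10.Q macrophages, against 7.38 and 7.42 in T cells. Klf9 was 10.78 and 10.93 in macrophages, against 7.78 and 7.77 in T cells, and was higher by 3.08 ± 0.19. The medians of those T-cell arrays were 7.44 and 7.47, so no fold is given for Klf9. Zbtb16 was higher in macrophages by 2.10 ± 0.28 (4.29-fold). Mt2 was 9.29 and 9.12 in macrophages, against 7.02 and 7.13 in T cells. Mt1 and Mt2 lay below the array median on both T-cell vehicle arrays and did not pass the filter in T cells. They entered this fit only through their macrophage level, so their calls are not read as results. No difference is given for them against so dim a signal. Ddit4 was 7.57 and 7.74 in macrophages, against 9.27 and 9.64 in T cells, a log2 difference of -1.80 ± 0.20. The medians of those macrophage arrays were 7.50 and 7.51, so Ddit4 was dim there and no fold is given for it. These 5 of 8 genes were called, 4 higher and 1 lower in macrophages, in a comparison where 62.1% of all genes were called, so the share is near that of all genes. Fkbp5 differed by -0.01 ± 0.26, Tsc22d3 by -0.20 ± 0.27 and Sgk1 by -0.20 ± 0.21, with 95% intervals of -0.59 to 0.56, -0.78 to 0.39 and -0.65 to 0.25. The tissue differed with the cell type, so cell type and site of collection cannot be told apart.

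**Figure D5:**
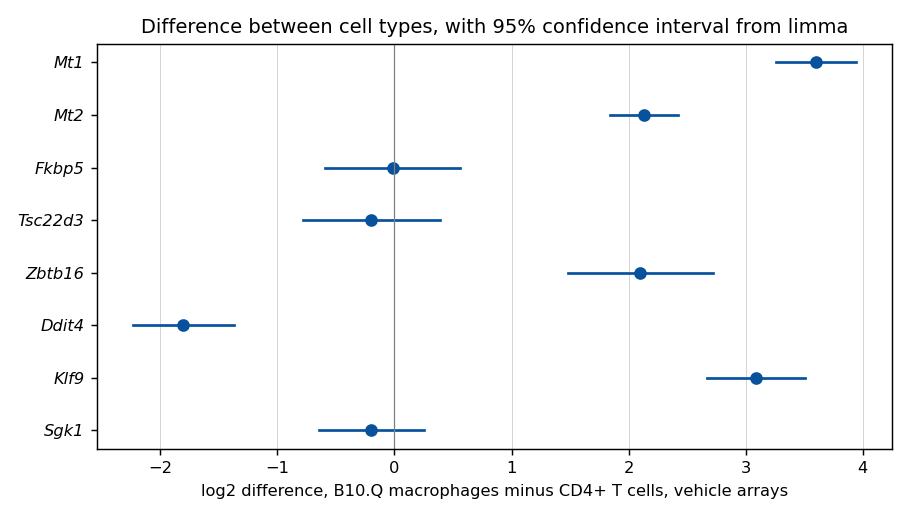
Log2 difference between B10.Q macrophages and CD4+ T cells on the vehicle arrays, with its 95% confidence interval from limma. Klf9 (3.08) and Zbtb16 (2.10) were higher in macrophages, Ddit4 (-1.80) was lower, and the intervals of Fkbp5, Tsc22d3 and Sgk1 crossed 0. Ddit4 lay near the array medians in macrophages, as Klf9 did in T cells. Mt1 and Mt2 were below the array median on both T-cell vehicle arrays. They passed the filter only through macrophages, so their plotted differences are not read as results.

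The difference between the macrophage and the T-cell response was tested in the fit of all 12 B10.Q arrays. At 2 h limma called 0 of the 8 genes, 0 had an unadjusted p under 0.05, and 0.0269% of all genes were called. At 5 h it called 0 of 8, 4 had an unadjusted p under 0.05 (Mt2, Fkbp5, Klf9 and Ddit4), and 0.251% of all genes were called. Over all 11161 genes, 815 at 2 h and 556 at 5 h had an unadjusted p under 0.05. Mt2 was at 6.79 to 7.30 in T cells, below the median of every T-cell array, and passed the filter here only through macrophages. Its estimated 5 h response was 0.68 in macrophages and -0.28 in T cells, and as the T-cell value comes from a dim probe set, the difference between them is not read as a result. Fkbp5 responses at 5 h differed by 1.26 ± 0.37 (adjusted p = 0.423).

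Other genes of the same pathways gave few calls. None of the genes tested from the lists of receptor machinery (10 in macrophages), other glucocorticoid-induced genes (20), metal and zinc handling (8), the integrated stress response (7), heat shock (7), immediate early genes (11) or the clock (9) was called after IFNα in KO or B10.Q macrophages by limma, nor any of their tested genes in T cells. At an unadjusted p under 0.05 there were 0 of the 72 genes tested in KO cells, 8 and 7 of 72 at 2 h and 5 h in B10.Q macrophages, and 9 and 5 of 63 at 2 h and 5 h in T cells. Over all genes these counts were 460, 476 and 414 of 10531 in macrophages, and 614 and 387 of 10112 in T cells, in the same order. The other glucocorticoid-induced genes had a median difference of 0.05 in KO macrophages and -0.02 and 0.05 at 2 h and 5 h in B10.Q macrophages. Heat-shock genes had medians of -0.06, -0.12 and -0.13 in the same order. Per1, a clock gene that the receptor induces directly, was higher at 5 h in B10.Q macrophages by 0.76 ± 0.31 (adjusted p = 1.00), and Bcl6, a transcriptional repressor, by 0.33 ± 0.12 (adjusted p = 0.851). Both are differences from the vehicle pair pooled over the 2 times. Per1 was 9.41 and 10.05 with IFNα at 5 h, against 9.04 on the vehicle array of that time. With IFNα at 2 h Per1 was 9.59 and 8.49, on both sides of the 8.91 of the 2 h vehicle array. At 2 h the leading genes by p in B10.Q macrophages were Slc39a14, a zinc transporter (-0.32 ± 0.11), and the clock repressor Nr1d2. Nr1d2 was 8.31 and 8.52 with IFNα at 2 h, against 8.60 on the vehicle array of that time, and 9.65 and 9.63 with IFNα at 5 h, against 9.53 on the vehicle array of that time, and its difference from the pooled vehicle pair is not given. In T cells Hsp90aa1, a chaperone of the receptor, was at -0.41 ± 0.10 at 2 h and Hmox1 at 0.53 ± 0.12 at 5 h. The Hsp90aa1 value is from the brightest of its 3 probe sets, and the others were not examined. Thbs1 was at 1.90 ± 0.56 at 2 h in T cells, where the array with raised macrophage markers had 10.12 and the other T-cell arrays 7.02 to 8.02. Nr3c1, the receptor itself, lay between 10.11 and 10.46 on macrophage arrays and between 9.71 and 9.91 on T-cell arrays.

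Between KO and B10.Q macrophages the lists gave 1 call of 72 genes tested without IFNα and 2 of 72 at 2 h, beside 0.541% and 1.98% of all genes. Jun, an immediate early component of AP-1, was 9.92 and 10.07 in KO macrophages without IFNα, against 9.003 and 9.154 in B10.Q vehicle macrophages, a difference of 0.92 ± 0.14 (adjusted p = 0.0246). It was also higher in KO cells at 2 h after IFNα by 0.66 ± 0.14 (adjusted p = 0.0499). Per2, a clock repressor, was 8.09 and 8.45 in KO cells at 2 h after IFNα, against 7.41 and 7.57 in B10.Q cells, and was higher by 0.77 ± 0.16 (adjusted p = 0.0396). None of the 3 calls was made with array medians subtracted (adjusted p = 0.0675 and 0.101 for Jun, 0.0786 for Per2). Without IFNα, Jun was not called when any 1 array of the compared groups was left out (0.84 to 0.99, adjusted p up to 0.325). At 2 h, Jun and Per2 were called without either KO array and not without either B10.Q array (adjusted p up to 0.417 for Jun and 0.362 for Per2). Heat-shock genes had a median of 0.26 without IFNα and 0.61 at 2 h between the strains, beside -0.03 and 0.02 over all genes. Hspa1a, an inducible chaperone, was 9.40 and 9.96 in KO IFNα macrophages and 8.81 and 10.69 in KO macrophages without IFNα, against 7.99 to 8.44 on the B10.Q macrophage arrays, and was not called (adjusted p = 0.120 with IFNα and 0.273 without).

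Between the cell types, 10 of the 21 other glucocorticoid-induced genes tested were higher and 4 were lower in macrophages, and of the 10 genes of receptor machinery 3 were higher and 2 lower. With 62.1% of all genes called, these shares are near the background. Thbs1 (thrombospondin 1) was 13.57 and 13.67 in vehicle macrophages, against 7.03 and 7.32 in T cells, and Anxa1 (annexin A1) was 11.15 and 10.78, against 6.15 and 5.86. Il7r, the interleukin 7 receptor, was 5.32 and 5.28 in vehicle macrophages, against 12.40 and 12.53 in T cells. In each of these 3 genes the lower cell type lay below the array median, so no fold is given. Hsd11b1, which regenerates active glucocorticoid inside cells, was 9.03 and 9.17 in vehicle macrophages, against 10.64 and 10.55 in T cells (-1.50 ± 0.13). Hmox1, the heme oxygenase that also responds to metals, was higher in macrophages by 3.09 ± 0.11.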

How the data were processed

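Per the submitters' processing notes, the arrays were summarised with RMA in Affymetrix Power Tools, with no version given. The deposited value is a linear intensity per probe set, and joint normalisation of the 16 arrays is not given in the sources used here. The log2 of each value was used with no further scaling. Of 24922 probe sets, 21425 carried 1 gene symbol, 1399 several and 2098 none, and only the first kind was used. A gene with several probe sets was represented by that with the highest mean. Genes above the array's own median on at least 2 arrays of a fit were tested.

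Group means were estimated by lmFit and eBayes of limma 3.58.1 (R 4.3.3), checked on simulated data, in 3 models, of the 10 macrophage, the 6 T-cell and the 12 B10.Q arrays, with two-sided tests and Benjamini-Hochberg adjustment within each contrast. Arrays carry no read depth, and precision is set by how few there are. The members, gene lists and tests were chosen with earlier results of these data known. Levels are given for all members, but not every member's difference in every comparison. From the other lists the leading genes by called difference or by p are named. Per1, Hspa1a, Nr3c1 and the spread-ranked genes were named after their values were seen. Promoter sequences are RefSeq's on GRCm38.p6. The alternatives were quantile normalization, subtraction of array medians, no filter, a trended robust variance, a treatment and time fit, a replicate block and leaving out each array. Replicate numbers were not taken to pair arrays, since the labels do not state a pairing and the deviations of same-numbered arrays did not correlate in every pair.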

Additional observations from a re-analysis of the deposited data

How the results depend on the processing

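Of 1020 member differences recomputed under other settings, 932 kept their sign and their side of the threshold, 75 changed sign while not called, 13 became called, 0 were lost and 0 were reversed. Among settings that kept all arrays, the number of the 8 genes called moved only for the difference of 5 h responses between cell types, to 1 (Mt2, a dim probe set in T cells) with array medians subtracted, against 0. Leaving out 1 array in turn gave 0 to 1 genes for KO IFNα against none, B10.Q macrophages at 2 h and each of the 3 comparisons of KO with B10.Q, and 0 to 2 for T cells at 2 h and for 5 h against 2 h. The other comparisons stayed at 0, or at 5 between cell types. Such fits leave 1 array in a group, so member calls made only there are not read as results. With the replicate number as a block, 13 of 13 counts of members kept their value, such as 5 between cell types. Deviations of same-numbered arrays correlated at -0.277 between the KO groups, -0.036 to 0.130 between B10.Q macrophage groups and -0.067 to 0.142 between T-cell groups. Between macrophages and T cells of 1 treatment they correlated at 0.148 with vehicle, where same-numbered arrays share the time of sacrifice, 0.156 at 2 h and -0.136 at 5 h. Between KO and B10.Q macrophage groups the values ran from -0.206 to 0.447. The highest was between KO IFNα and B10.Q IFNα at 5 h. As not every pair was above 0.1, the numbers were not taken to pair the arrays.

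Counts over all genes moved more. For KO IFNα against none, quantile normalization called 1 gene against 0, and leaving out 1 array gave 0 to 1185. The treatment and time fit called 156 genes for IFNα in B10.Q macrophages (84 at 2 h and 88 at 5 h by group means) and 8 for time against 1, and 0 for T cells (29, 2 and 1 by group means). Array medians gave 4 against 2 for T cells at 5 h. For 5 h against 2 h in T cells, no filter and array medians gave 3 each against 1. For the difference of responses between cell types at 2 h, no filter, array medians and the trended variance gave 7, 5 and 6 against 3, and at 5 h quantile normalization and the trended variance gave 8 and 17 against 28. Leaving out 1 array gave 0 to 1819 for T cells at 2 h, highest without array 2 of that group, and 76 to 2898 for KO against B10.Q at 2 h, highest without KO IFNα array 2. The range was 36 to 123 for B10.Q macrophages at 2 h, 29 to 38 at 5 h and 1 to 5 between them, 21 to 34 for KO against B10.Q without IFNα, 8 to 490 for the difference of their responses, 0 to 1626 for T cells at 5 h against 2 h, 0 for T cells at 5 h, and 1 to 507 and 5 to 11 for the difference of responses between cell types at 2 h and 5 h. The cause was not tested. Of the other genes called between KO and B10.Q, Jun at 2 h also missed the threshold with no filter (adjusted p = 0.0503) and with a trended variance (adjusted p = 0.0557).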
